A study of Arabidopsis thaliana with 9 samples.

Results

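The double mutant epfl4 epfl6 of Arabidopsis thaliana, which lacks a pair of peptide ligands, was compared with its wild type by gene expression in inflorescence tips. The comparison used the 3 arrays labelled epfl4 epfl6 and the 3 labelled WT, 6 of the 9 arrays of the study, chosen by the genotype in their labels. The remaining 3 arrays, of the receptor mutant er-2, entered the estimate of the spread and a direct comparison with epfl4 epfl6. All 3 genotypes share the Col-0 background, were sampled 33 days after germination and grew on soil in continuous light with no treatment. Tested were 22746 of 22810 probe sets, all those that are not Affymetrix controls. The labels name separate biological replicates, but not the number of plants behind an array, the staging of the buds or the mutant alleles of EPFL4 and EPFL6, and one label field calls the tissue flower buds. The p-values measure the spread between these samples, and the number of arrays limits the precision.

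EPFL4 and EPFL6 encode small secreted cysteine-rich peptides of the epidermal patterning factor-like family. In the inflorescence stem they are made in the endodermis and are perceived by ERECTA (ER), a leucine-rich repeat receptor kinase, and the signal promotes elongation of the stem and the pedicels. Relatives of these peptides act through ER family receptors in the leaf epidermis, where they limit or promote the formation of stomata, and the ER family is also needed for anther and ovule development. No probe set was named for ER, EPFL4 or EPFL6, so their transcripts were not analysed here and the genotype labels could not be checked from them. Of 19 ligands, receptors and co-receptors of the pathway only STOMAGEN, which encodes a peptide that promotes stomata, was measured. Its log2 signals were 8.02, 8.12 and 8.05 in WT and 8.03, 8.06 and 8.12 in epfl4 epfl6, overlapping ranges with a log2 change of 0.01 ± 0.0601 (SE; limma adjusted p = 0.922). None of 18 genes sought for signalling downstream of ER was measured. Here a measured gene is one with a probe set named for it alone. Of the 22746 probe sets tested, 8730 had no gene listed, so genes not measured may be among those tested without a name.

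The 3 epfl4 epfl6 arrays stood apart from the WT arrays in their control probe sets. Control probe sets at both ends of actin, GAPDH and ubiquitin messages measure how far the labelled RNA reaches from the 3′ end. Their 3′ signal was above the 5′ signal by 2.46, 2.3 and 2.58 on the log2 scale on the WT arrays, and by 1.61, 1.72 and 1.67 on the epfl4 epfl6 arrays. The means were 2.45 ± 0.138 and 1.67 ± 0.0507 (SD, n = 3), a difference of −0.78 with an exact permutation p of 0.1, the smallest that 3 against 3 arrays can give. For each of the 6 control transcript pairs the difference was lower in epfl4 epfl6, with changes from −1.62 to −0.37. The 25S ribosomal RNA control was at 11.84 ± 0.0274 in WT and 11.30 ± 0.150 in epfl4 epfl6, and the hybridisation controls were at 11.37 ± 0.158 and 10.87 ± 0.0950 (SD, n = 3; exact permutation p = 0.1 for each). Because none of these measures overlapped between the groups, they cannot be told apart from the genotype in any result below. Across probe sets, arrays of one genotype correlated at 0.9960 to 0.9973 and arrays of WT with those of epfl4 epfl6 at 0.9816 to 0.9858.

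**Figure D1:**
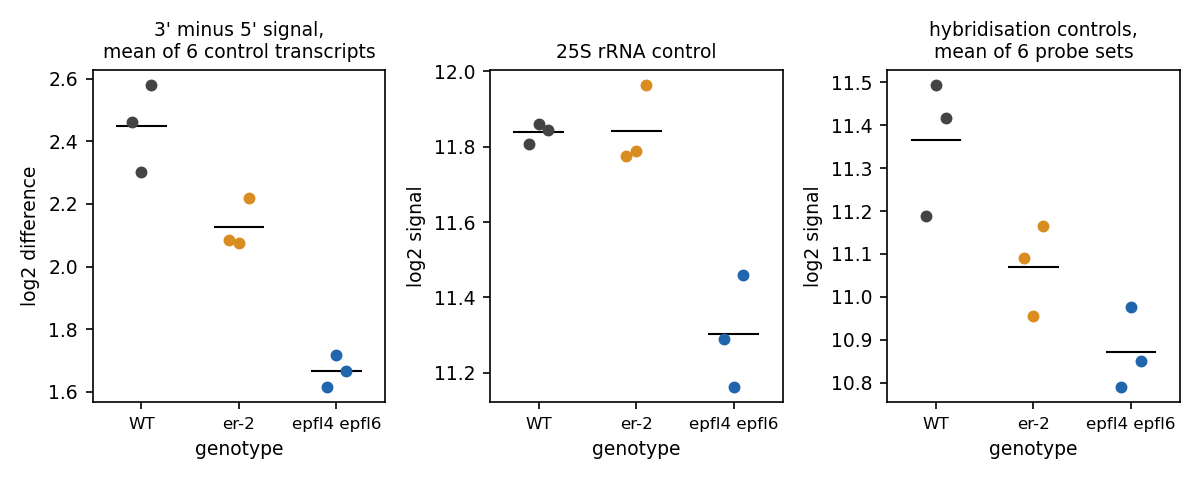
Control probe sets on each of the 9 arrays, by genotype, as log2 values. Points are arrays and bars are means of 3; in all 3 panels the epfl4 epfl6 arrays lie below the WT arrays, and in the left panel er-2 lies between them.

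Markers of the labelled tissue were measured only in part. Of 30 genes sought for floral organ identity and timing, 5 had a named probe set, and all 5 lay above the lower quartile of the arrays (3.22 to 3.33) on at least 1 array. The meristem genes UFO, LAS and CLV3, which act in floral meristems, axillary meristems and the shoot stem cell niche, had WT means of 3.67 ± 0.114, 3.35 ± 0.114 and 2.84 ± 0.173 (SD, n = 3), near or below that quartile, and none was called. Of 13 measured pollen genes, 5 lay below the quartile on all 6 arrays. Both measured root genes lay below it on all 6 arrays, and all 9 measured photosynthesis genes were in the top quartile of signal. The array gives no detection call, so for signals near the lower quartile the fitted change is not a measure of the true size.

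At an adjusted p under 0.05, 7707 probe sets were called, 33.9% of those tested. Of these 4079 were higher in epfl4 epfl6 (17.9%) and 3628 lower (16%), and in 7569 of them the 3 arrays of each genotype lay fully apart, against 10101 (44.4%) among all probe sets. Called log2 changes had a median size of 0.41, and the median change of all probe sets was −0.00075. The large changes were mostly falls: 354 called probe sets fell at least 2-fold (1.56% of those tested) and 158 rose at least 2-fold (0.695%). At 4-fold or more the counts were 84 lower and 5 higher, and at 8-fold or more 36 lower and 0 higher. After median centring the calls split into 4951 higher and 2922 lower, since centring shifted the median of all changes by 0.05, so the balance of small changes depends on the scaling. When the gap between 3′ and 5′ control signal entered the fit as a covariate, limma called 1 probe set (1238 higher and 1168 lower at an unadjusted p under 0.05), with standard errors 4.0 times as large, so the calls given here do not separate the genotype from that gap. The calls were also uneven along signal: in the lowest quartile of mean signal 1.46% were called higher and 4.38% lower, and in the highest 36.1% and 17.7%. Of the probe sets changed at least 2-fold, 180 lower and 80 higher were assigned to 1 gene and can be named. Changes of −6.46 and 2.90, the ends of the range, belong to probe sets with no named gene.

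**Figure D2:**
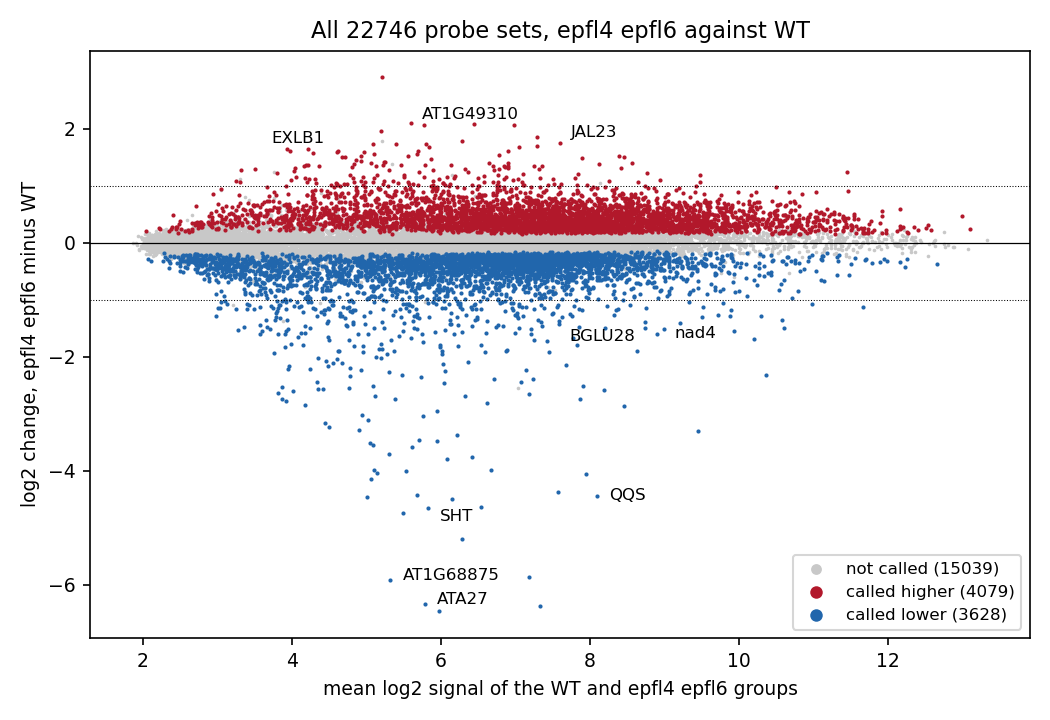
Log2 change in epfl4 epfl6 against WT for all 22746 probe sets, plotted against mean log2 signal; coloured points were called at an adjusted p under 0.05 and dotted lines mark a 2-fold change. Falls extend to −6.46 and rises to 2.90, and genes described in the text are labelled.

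ATA27 and SHT, genes of the anther, were among the 20 largest falls. In bulk samples such as these, fewer cells of a type and less RNA per cell cannot be told apart. ATA27 (AT1G75940), a β-glucosidase family gene of the anther tapetum, the cell layer that feeds the developing pollen, had log2 signals of 9.13, 9.54 and 8.19 on the WT arrays and 2.36, 2.8 and 2.67 on the epfl4 epfl6 arrays. The groups lay far apart, and the epfl4 epfl6 signals lay below the lower quartile of the arrays. The fall was 6.34 ± 0.733 in log2 units (SE; limma adjusted p = 0.000175). SHT (AT2G19070), the acyltransferase that makes the hydroxycinnamoyl spermidines of the pollen coat in the tapetum, was at 8.55, 8.56 and 7.35 in WT and 3.28, 3.86 and 3.34 in epfl4 epfl6. It fell by 4.66 in log2 units (SE 0.538, limma adjusted p = 0.000174). SDT (AT2G23510), which encodes a related acyltransferase for spermidine conjugates and is not on the list of anther genes, was at 6.84, 6.48 and 6.6 in WT and 5.51, 5.43 and 5.77 in epfl4 epfl6, a fall of 1.07 (adjusted p = 0.000104). The groups did not overlap for SHT or SDT, as for 44.4% of all probe sets.

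Of 41 genes sought for the anther and tapetum only 6 were measured. Of these 6, 5 were called lower and none higher, with a median log2 change of −0.75. Over all probe sets the median was −0.00075 and 16% were called lower. SWEET8 (AT5G40260), a sugar transporter of the tapetum needed for the pollen wall, had WT signals of 8.35, 8.69 and 7.97 and epfl4 epfl6 signals of 7.14, 7.09 and 7.47. It fell by 1.1 ± 0.248 (adjusted p = 0.00672), and the lowest WT array lay above the highest epfl4 epfl6 array. The smaller changes were those of the regulators: AMS, the transcription factor of tapetum maturation, fell by 0.4 (adjusted p = 0.0028). EMS1, the receptor kinase that specifies the tapetum, fell by 0.32 (adjusted p = 0.0193), a call lost without replicate 2 or 3 of WT or replicate 1 or 3 of epfl4 epfl6 (adjusted p from 0.00596 to 0.0683 over the alternatives). SPL, which starts sporogenesis and is also listed under floral and ovule genes, had a change of −0.27 (adjusted p = 0.158). Among 13 pollen genes, 3 were called lower and 1 higher, with a median change of −0.08. The MADS-box gene AGL18 fell by 0.85 (adjusted p = 6.48e-05) and AGL30, a MADS-box gene active in pollen, by 0.31. PLIM2a, an actin-bundling protein gene, rose by 0.57 (adjusted p = 0.00132). The control gap between 3′ and 5′ signal fell along with these genes, and its part in their fall was not tested.

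The other genes with the deepest falls are known here only by their locus tags. AT1G68875 had log2 signals of 8.29, 8.83 and 7.7 on the WT arrays and 2.29, 2.56 and 2.25 on the epfl4 epfl6 arrays, a fall of 5.91 ± 0.612 (SE; limma adjusted p = 0.000103). AT5G13380 was at 9.09, 9.38 and 8.16 in WT and 2.77, 4.4 and 3.88 in epfl4 epfl6. AT1G30020 was at 7.6, 7.61 and 6.52 and 2.72, 3.02 and 2.6. All 3 genes went from signals above the array median, which was 5.82 to 5.91, to signals near the lower quartile or below it on at least 1 epfl4 epfl6 array. AT5G48210, AT5G16960, AT1G20150, AT5G17340 and AT1G02813 fell by 4.74, 4.63, 4.5, 4.43 and 4.06. AT4G14815, AT1G20120, AT2G28680, AT1G23570 and AT3G57620 fell by 3.8, 3.7, 3.59, 3.54 and 3.48. AT1G23560, AT5G14980, AT1G75920 and AT2G03850 completed the 20 largest falls, with 3.28, 3.15, 3.11 and 3.01.

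These 20 genes differed among arrays of one genotype far more than most probe sets did. The SD over the WT arrays had a median of 0.57 for them and of 0.0894 for all probe sets. WT replicate 2 was the highest WT array for 17 of the 20 genes and WT replicate 3 the lowest for 17. The mean log2 signal over the 20 genes was 7.88, 8.37 and 7.37 on the WT arrays and 3.41, 3.86 and 3.74 on the epfl4 epfl6 arrays. In epfl4 epfl6, replicate 2 was the highest array for 12 of the 20 and replicate 1 the lowest for 12. The er-2 arrays spread most, at 5.94, 7.30 and 5.55, and er-2 replicate 2 was the highest er-2 array for 19 of the 20. The groups WT and epfl4 epfl6 stayed apart for every one of the 20, as the rule for naming them required, so the ordering within a genotype, and not the separation, is what these counts describe.

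**Figure D3:**
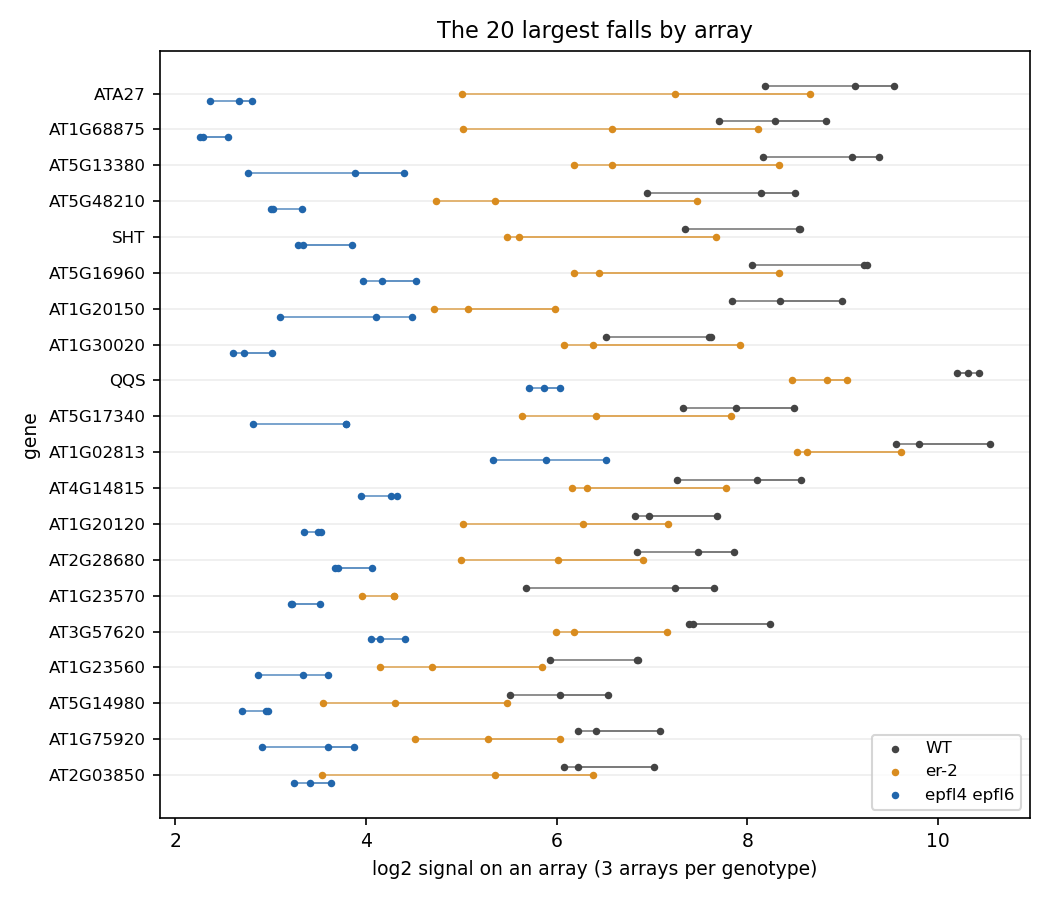
Log2 signal on each array for the 20 largest falls in epfl4 epfl6 against WT among genes with a named probe set, largest at the top; points are arrays, lines join the 3 arrays of a genotype. WT and epfl4 epfl6 do not overlap for any gene, as the rule for naming them required. The er-2 arrays spread widely, and the WT arrays of QQS lie close together.

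QQS stood out from the other deep falls by the tightness of its WT group. QQS (AT3G30720), a gene found only in this species that lowers starch content and alters the balance of carbon and nitrogen, had log2 signals of 10.43, 10.2 and 10.31 in WT and 5.87, 6.03 and 5.71 in epfl4 epfl6. It fell by 4.44 in log2 units (SE 0.139, limma adjusted p = 5.18e-07). Its SD over the WT arrays was 0.112, the lowest among the 20 genes. Of 6 measured genes of starch and sugar metabolism, QQS included, 1 was called higher and 2, QQS among them, lower, counts near those that 17.9% and 16% of all probe sets would give. APL3 and APL4 encode large subunits of ADP-glucose pyrophosphorylase, which makes the substrate of starch synthesis. APL3 rose by 0.44 (adjusted p = 0.00327). APL4 changed by −0.29 (adjusted p = 0.0425), a call lost under 7 of 13 alternatives (adjusted p from 0.0305 to 0.14).

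Further falls concerned genes of different kinds, some of them given here without a role. BGLU28 (AT2G44460), a β-glucosidase that breaks down glucosinolates under sulphur shortage, was at 8.34, 8.27 and 8.29 in WT and 6.85, 6.87 and 6.9 in epfl4 epfl6, groups that were narrow and fully apart. It fell by 1.43 in log2 units (SE 0.0555, limma adjusted p = 7.57e-07). TBL38 (AT1G29050), of a family of wall polysaccharide acetyltransferases, was at 7.68, 7.94 and 7.76 in WT and 6.43, 6.14 and 6.32 in epfl4 epfl6 and fell by 1.49 (adjusted p = 8.54e-06). The subtilase gene SBT5.4 fell by 2.02, the organic cation transporter gene OCT1 by 1.8, and UND by 1.3. FHL, which carries phytochrome A into the nucleus, fell by 1.16 (adjusted p = 0.000388). The receptor-like kinase gene SD1-29 and the kinase gene WNK7 fell by 1.15 and 1.11. UGT72E2, which glucosylates monolignols, fell by 1.1, and CIL fell by 1.06. P1R3 fell by 1.35. NAMT1, at WT signals of 3.88, 3.7 and 3.25, fell by 1.01. ARL (AT2G44080), a gene of the ARGOS family that promotes organ growth by cell expansion, was at 7.4, 7.14 and 7.86 in WT and 6.32, 6.31 and 6.58 in epfl4 epfl6. It fell by 1.06 ± 0.173 (adjusted p = 0.00114). LCR66, a small cysteine-rich protein gene, fell by 0.97. It was the only one of 13 measured defensin-like genes called, beside 33.9% called among all probe sets.

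The largest rises were smaller and more even among arrays than the falls. JAL23 (AT2G39330), a jacalin-related lectin gene, had log2 signals of 6.64, 6.79 and 6.74 in WT and 8.1, 8.93 and 8.4 in epfl4 epfl6. It rose by 1.75 in log2 units (SE 0.169, limma adjusted p = 7.34e-05). Of the 4 measured jacalin lectins it was the only one called higher, and 1 other was called lower, beside 17.9% and 16% of all probe sets. AT1G49310 was at 4.73, 4.46 and 4.46 in WT and 6.85, 6.25 and 6.85 in epfl4 epfl6, the largest rise of a named gene at 2.1 ± 0.173 (adjusted p = 3.44e-05). AT1G04660 went from 6.21, 6.36 and 6.03 to 8.1, 7.69 and 7.87, a rise of 1.69 (adjusted p = 1.11e-05). For all 3 genes the lowest epfl4 epfl6 array lay above the highest WT array, as the rule for naming them required. AT1G24575, AT1G60590, AT1G72920, AT3G45680 and AT3G28270 rose by 1.61, 1.59, 1.59, 1.52 and 1.5. AT3G53980, AT5G42680, AT3G14395, AT4G27280, AT2G44300 and AT3G19550 rose by 1.48, 1.47, 1.45, 1.41, 1.4 and 1.37. Over the 20 largest rises the median SD of the WT arrays was 0.104, against 0.57 for the 20 largest falls, and the mean signal was 5.23 on each WT array and 6.86, 6.70 and 6.83 on the epfl4 epfl6 arrays.

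**Figure D4:**
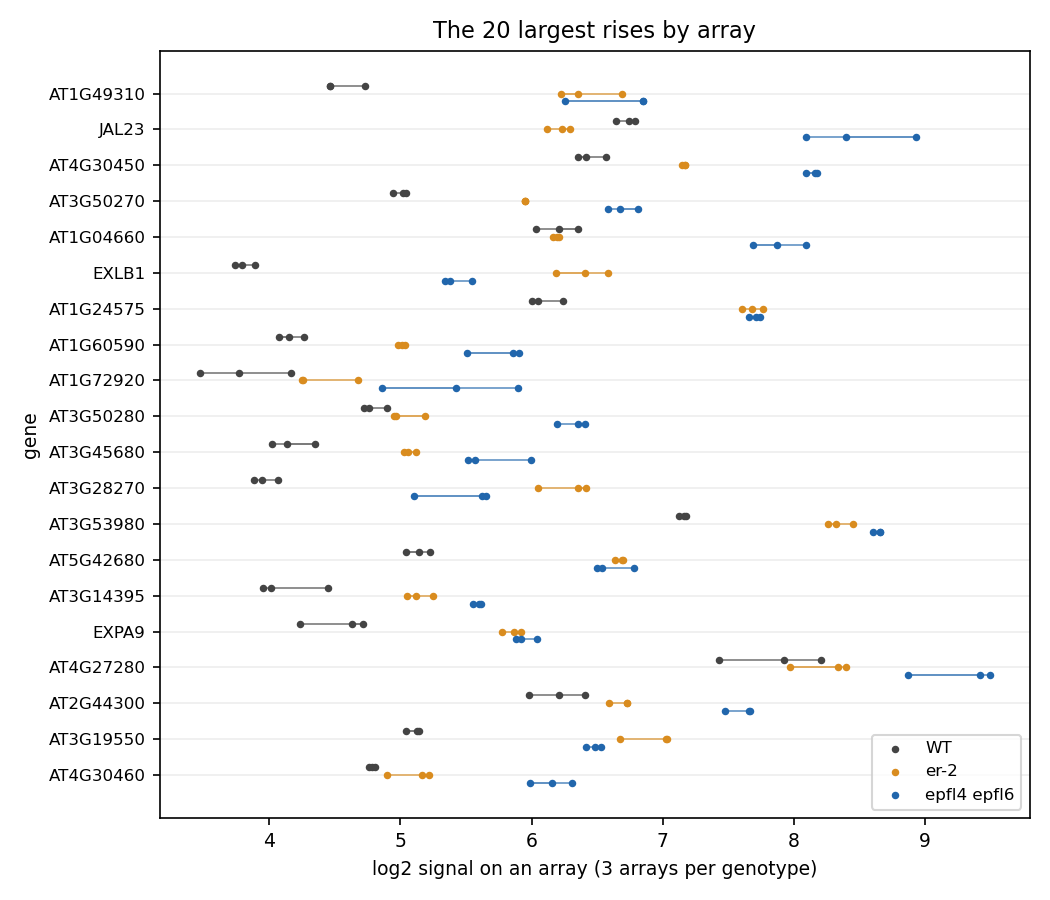
Log2 signal on each array for the 20 largest rises in epfl4 epfl6 against WT among genes with a named probe set, largest at the top; points are arrays, lines join the 3 arrays of a genotype. WT and epfl4 epfl6 do not overlap for any gene, as the rule for naming them required. The spread within a genotype is small beside that of the largest falls.

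Genes of the late stomatal lineage rose. SPCH, MUTE and FAMA (listed as FMA) are transcription factors that act in turn to start, commit and complete the making of guard cells, and CHX20 is a cation exchanger of mature guard cells. CHX20 (AT3G53720) was at 4.94, 5.21 and 5.44 in WT and 6.4, 6.24 and 6.4 in epfl4 epfl6 and rose by 1.15 in log2 units (SE 0.112, limma adjusted p = 7.73e-05). FMA (AT3G24140) was at 5.41, 5.39 and 5.63 in WT and 6.33, 6.44 and 6.5 in epfl4 epfl6 and rose by 0.95 (adjusted p = 4.06e-05). MUTE (AT3G06120) was at 4.09, 3.88 and 4.14 in WT and 4.58, 4.57 and 4.55 in epfl4 epfl6 and rose by 0.53 (adjusted p = 0.00133). The groups did not overlap for any of the 3, as for 44.4% of all probe sets. SPCH, the first to act, was at 5.55, 5.43 and 5.57 in WT and 5.44, 5.61 and 5.42 in epfl4 epfl6, with a log2 change of −0.02 (adjusted p = 0.87) and overlapping groups. Of 15 genes sought for the lineage 4 were measured, 3 of them called higher, beside 17.9% of all probe sets, with a median change of 0.74. The 3 calls remained under all 13 alternatives other than the RNA quality covariate.

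Nuclear genes of photosynthesis rose by small steps. Of 9 measured nuclear genes for chloroplast proteins, 7 were called higher and none lower, with a median log2 change of 0.27. All 9 lay in the top quartile of signal, where 36.1% of probe sets were called higher. RCA (AT2G39730), the activase of Rubisco, was at 11.73, 11.65 and 11.63 in WT and 12.16, 12.04 and 12.25 in epfl4 epfl6, and rose by 0.48 (adjusted p = 0.000975). PRK (AT1G32060), phosphoribulokinase of the Calvin cycle, was at 9.87, 9.9 and 9.81 and 10.42, 10.19 and 10.43 and rose by 0.49 (adjusted p = 0.00117). The photosystem genes PSBY and PSAN rose by 0.45 and 0.4. LHCB4.3, an antenna protein gene, had a change of 0.27, and PSAE-1, of photosystem I, one of 0.22. Their calls were lost with quantile normalization again and without epfl4 epfl6 replicate 3, and that of PSAE-1 also without replicate 1 or 2 of WT or replicate 1 of epfl4 epfl6 (adjusted p from 0.00248 to 0.0925). The count of 7 was 4 under those 2 shared settings. CHLI2, a subunit of the magnesium chelatase of chlorophyll synthesis, rose by 0.89 (adjusted p = 4.39e-05).

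Genes held in the plastid genome did not share these rises, and several of the mitochondrial genome fell. Of 69 measured plastid genes, 62 of them in the top quartile of signal, 13 (18.8%) were called lower and 5 (7.25%) higher, with a median log2 change of −0.11. The share called lower is near the 17.7% of all probe sets in that quartile, and the share called higher compares with 36.1%. psbA (ArthCp002), the D1 protein of photosystem II, was at 11.34, 11.54 and 11.42 in WT and 10.72, 10.89 and 10.72 in epfl4 epfl6 and fell by 0.66 (adjusted p = 0.000608). The ribosomal protein gene rpl20 fell by 0.84 and the ATP synthase gene atpF by 0.65. In the other direction ndhA, of the NADH dehydrogenase-like complex, rose by 0.71, the photosystem II gene psbE by 0.63 and psbK by 0.5. Of 16 mitochondrial genes 6 (37.5%) were called lower, beside 16% of all probe sets, and 1 higher, with a median of −0.31. The respiratory complex I gene nad4 was at 9.72, 9.68 and 9.85 in WT and 8.05, 8.35 and 8.3 in epfl4 epfl6, fully apart, and fell by 1.52 in log2 units (SE 0.0944, limma adjusted p = 1.03e-05). The complex I genes nad9 and nad5 fell by 0.69 and 0.38, the cytochrome c maturation gene ccb452 by 0.67 and orfX by 0.48. The 1 call in the other direction, nad2 with 0.34, was lost without replicate 1 or 3 of WT or replicate 1 or 3 of epfl4 epfl6 (adjusted p from 0.0129 to 0.0862). The labelling kit primes at the poly(A) tail, which most organelle transcripts lack, and the 25S rRNA control fell along with these genes, by 0.53. Its part in their fall was not tested. Over the 13 alternatives the calls ran from 10 to 17 lower and 4 to 7 higher for the plastid genes, and from 5 to 7 lower and 0 to 1 higher for the mitochondrial genes.

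Genes that loosen the cell wall rose more often than they fell. Expansins loosen the bonds between wall polymers and xyloglucan endotransglucosylases (XTH) cut and rejoin xyloglucan. Of 22 measured wall loosening genes, 8 were called higher and 3 lower, beside 17.9% and 16% of all probe sets, and the median log2 change was 0.11. EXLB1 (AT4G17030), an expansin-like gene, was at 3.89, 3.79 and 3.74 in WT and 5.55, 5.38 and 5.34 in epfl4 epfl6 and rose by 1.61 in log2 units (SE 0.101, limma adjusted p = 1.05e-05). EXPA9 (AT5G02260) was at 4.63, 4.71 and 4.24 in WT and 5.92, 5.88 and 6.04 in epfl4 epfl6 and rose by 1.42 (adjusted p = 3.17e-05). XTH32 (AT2G36870) was at 7.75, 7.63 and 7.74 in WT and 8.78, 8.66 and 8.92 in epfl4 epfl6 and rose by 1.08 (adjusted p = 1.72e-05). The groups did not overlap for any of the 3, as for 44.4% of all probe sets. XTH19, at 2.91, 2.82 and 2.59 in WT and 4.48, 3.14 and 3.92 in epfl4 epfl6, started below the lower quartile of the arrays and spread widely in the mutant (adjusted p = 0.00989). EXPA16 rose by 0.73 and the endoglucanase gene GH9B8 by 0.88. In the other direction, the expansin-like gene EXLA2 fell by 0.75 (adjusted p = 0.000142) and the XTH gene EXGT-A3 by 0.43. EXLA1, the remaining call lower, had the largest fall of the list, 0.91 (adjusted p = 0.0181). It lay outside the naming rule and was not followed through the alternatives. Of the 19 measured expansin family members, 7 lay below the lower quartile on all 6 arrays.

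Auxin genes changed in both directions. YUC2 (AT4G13260) and YUC6 (AT5G25620) encode flavin monooxygenases of auxin synthesis and fell by 0.81 (adjusted p = 0.00103) and 0.39 (adjusted p = 0.0091). YUC4, of the same family, had a change of 0.35 (adjusted p = 0.0868). YUC2 was at 5.49, 5.74 and 5.3 in WT and 4.51, 4.82 and 4.75 in epfl4 epfl6, without overlap. GH3 enzymes join auxin or other acids to amino acids. GH3.3 (AT2G23170) was at 8.26, 8.75 and 8.05 in WT and 7.11, 7.09 and 7.14 in epfl4 epfl6 and fell by 1.24 ± 0.186 (SE; adjusted p = 0.000724). GH3.9 (AT2G47750) went the other way, from 5.15, 5.08 and 5.53 to 6.5, 6.4 and 6.7, and rose by 1.28 ± 0.131 (SE; adjusted p = 9.65e-05). WES1, another gene of this family, had a change of 0.15 (adjusted p = 0.208). The indole-3-acetate glucosyltransferase genes IAGLU and UGT74D1 rose by 0.9 and 0.85. Of 8 measured genes of auxin synthesis, conjugation and transport, 3 (37.5%) were called lower and 1 (12.5%) higher, beside 16% and 17.9% of all probe sets (median −0.08). Of 7 auxin response genes 1 was called, beside 33.9% of all probe sets. This was HAT2 (AT5G47370), a homeobox gene that auxin induces, with 7.94, 7.72 and 7.85 in WT and 6.93, 7.0 and 6.88 in epfl4 epfl6 and a fall of 0.9 (adjusted p = 6.53e-05).

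Other hormone lists held few measured members, too few to set their counts against the 33.9% called among all probe sets. RR16 (AT2G40670), a type-A response regulator that cytokinin induces, was at 5.64, 5.89 and 5.42 in WT and 4.53, 4.94 and 4.72 in epfl4 epfl6 and fell by 0.92 (adjusted p = 0.00253), while ARR15 of the same class had a change of 0.09 (adjusted p = 0.526). The gibberellin receptor gene GID1A rose by 0.37 (adjusted p = 0.00703) and SLY1, the F-box protein gene that acts on the growth repressors of this hormone, by 0.3 (adjusted p = 0.00167), 2 of 4 measured gibberellin genes. JMT, which methylates jasmonate, fell by 0.54 (adjusted p = 0.000526) and was the only one of 3 jasmonate genes called. GI (AT1G22770), the clock gene GIGANTEA, was at 6.44, 6.44 and 6.55 in WT and 6.01, 5.98 and 5.75 in epfl4 epfl6 and fell by 0.56 (adjusted p = 0.00111). It was the only measured clock gene. STZ, a zinc finger repressor of stress responses, was at 3.75, 4.31 and 5.88 in WT and 6.63, 5.45 and 5.99 in epfl4 epfl6. These groups overlapped, and the change of 1.38 was not called (adjusted p = 0.0538), although 7 of 13 alternatives called it (adjusted p from 0.0028 to 0.176).

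The vascular lists gave calls in both directions, on few measured members and beside 33.9% called among all probe sets. CLE44 and CLE41 encode the phloem peptide that keeps the procambium dividing. CLE44 (AT4G13195) was at 6.71, 6.61 and 6.64 in WT and 5.85, 5.79 and 5.97 in epfl4 epfl6 and fell by 0.78 (adjusted p = 0.000662). CLE41 was at 8.23, 8.11 and 8.21 in WT and 8.22, 8.33 and 8.24 in epfl4 epfl6, overlapping groups with a change of 0.08 (adjusted p = 0.347). OPS, which directs protophloem formation, rose by 0.48, a call lost without WT replicate 2 (adjusted p = 0.0503). The sucrose exporters SWEET11 and SWEET13 changed by 0.46 and −0.36. The call of SWEET11 was lost without replicate 1 or 3 of WT or replicate 2 or 3 of epfl4 epfl6 (adjusted p from 0.00738 to 0.0974), and that of SWEET13 without replicate 1 of WT or replicate 2 of epfl4 epfl6 and with quantile normalization again (from 0.00513 to 0.064). None of 3 procambium and cambium genes was called, 1 xylem gene was measured and not called, and of 3 endodermis genes 1 was called higher and 1 lower.

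Sugar and glucosinolate transport changed gene by gene. Of 16 measured SWEET family transporters 5 were called higher and 3 lower, beside 17.9% and 16% of all probe sets, with a median change of 0.02. SWEET7 (AT4G10850) was at 6.98, 6.98 and 6.77 in WT and 7.43, 7.72 and 7.83 in epfl4 epfl6 and rose by 0.75 (adjusted p = 0.000482). SWEET17, the fructose transporter of the vacuole, rose by 0.49, SWEET14 fell by 0.56, and the sugar transporter family gene SFP1 rose by 1.0. GTR2 (AT5G62680) loads glucosinolates, the sulphur-rich defence compounds of this plant family, into the phloem. It was at 6.02, 5.88 and 6.09 in WT and 7.19, 7.0 and 7.32 in epfl4 epfl6, fully apart, and rose by 1.17 in log2 units (SE 0.0935, limma adjusted p = 3.13e-05). UGT74B1, which makes the thioglucose bond of glucosinolates, rose by 0.64 (adjusted p = 0.000252). With the fall of BGLU28, 3 of 6 measured glucosinolate genes were called, 2 higher and 1 lower, and with so few members this is close to the 33.9% called among all probe sets.

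Most members of the large enzyme families were not called. Of 45 measured UDP-glycosyltransferases 8 (17.8%) were called higher and 3 lower, shares no larger than the 17.9% and 16% of all probe sets, and the median change was 0.06. GT72B1 and UGT71B1 rose by 0.98 and 0.57, and AT5G54010 fell by 2.53. Of 12 glutathione S-transferases 4 were called higher and 1 lower. GSTU20 (AT1G78370) was at 8.75, 8.72 and 8.68 in WT and 9.73, 9.6 and 9.71 in epfl4 epfl6, and rose by 0.96 (adjusted p = 1.11e-05), GSTF4 rose by 0.88 and GSTU27 fell by 0.47. Of 29 serine carboxypeptidase-like genes 5 were called higher and 4 lower. The carboxypeptidase-like gene scpl31 was at 6.33, 6.08 and 5.98 in WT and 7.4, 7.22 and 7.69 in epfl4 epfl6 and rose by 1.3 (adjusted p = 8.26e-05), and scpl35 rose by 1.04, while SCPL43 fell by 0.62. Of 20 β-glucosidases 3 were called each way, and of 24 cytochrome P450 genes 1 each way. BGLU46, a β-glucosidase of a group that acts on lignin precursors, rose by 0.65 on the log2 scale. Its means of 2.39 in WT and 3.04 in epfl4 epfl6 both lay below the lower quartile of the arrays. BGLU41 fell by 0.58. The mitochondrial peroxiredoxin gene PRXIIF rose by 0.93 (adjusted p = 2.57e-05) and CRR41 by 0.97.

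MADS-box genes, which hold many regulators of flowering and floral organs, were mostly dim. Of 42 measured members 27 lay below the lower quartile on all 6 arrays, and 3 were called higher and 6 lower, neither share above the 17.9% and 16% of all probe sets. AGL42 (AT5G62165), of a group that affects flowering and organ ageing, was at 6.14, 6.14 and 6.24 in WT and 6.83, 6.75 and 6.92 in epfl4 epfl6 and rose by 0.66 (adjusted p = 0.0004). AGL24 (AT4G24540), a promoter of flowering, was at 6.3, 6.14 and 6.46 in WT and 6.96, 6.56 and 7.0 in epfl4 epfl6 and rose by 0.54 (adjusted p = 0.00632). It was the 1 call among the 5 measured floral genes. The cell cycle list was split, with PRL, a subunit of the replicative helicase, down by 0.42 on the log2 scale (adjusted p = 0.00267) and the kinase gene AUR2 up by 0.26 (adjusted p = 0.0104) among 4 measured members.

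The direct comparison asked where the ligand mutant differed from the receptor mutant, with no WT array in the contrast. It called 4587 probe sets, 20.2% of those tested, of which 2277 were higher in epfl4 epfl6 (10%) and 2310 lower (10.2%). Of the 6 anther genes, ATA27 and SHT were called lower than in er-2. The differences of the others were not called, at −0.42 for SWEET8 (adjusted p = 0.275), −0.04 for AMS (adjusted p = 0.738), 0.05 for EMS1 (adjusted p = 0.724) and −0.00334 for SPL (adjusted p = 0.99). On the er-2 arrays ATA27 was at 7.24, 8.66 and 5.01, so that all 3 lay above the epfl4 epfl6 arrays, and the difference was −4.36 ± 0.733 (SE; limma adjusted p = 0.00325). SHT was at 5.61, 7.67 and 5.47 in er-2 (difference −2.76, adjusted p = 0.00635), and AT1G30020 was at 6.08, 7.93 and 6.38 (difference −4.01, adjusted p = 0.000406). QQS was at 8.47, 9.05 and 8.84, between the epfl4 epfl6 and the WT arrays, with a difference of −2.91 ± 0.139 (adjusted p = 2.46e-06). AT1G76470 was lower than in er-2 by 3.0 (adjusted p = 0.00567), with signals of 5.94, 3.61 and 5.4 in epfl4 epfl6 and 7.91, 8.3 and 7.75 in er-2.

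In the other direction, the largest differences included genes whose signal was low in er-2, with epfl4 epfl6 close to, below or above WT. AT1G23960 was at 7.8, 7.91 and 7.86 in WT, 7.89, 7.87 and 7.87 in epfl4 epfl6 and 2.35, 2.73 and 2.46 in er-2, and the epfl4 epfl6 change from WT was 0.02 (adjusted p = 0.879). ECS1 was at 10.57, 10.77 and 10.84 in epfl4 epfl6 and 4.42, 4.52 and 4.21 in er-2. AT1G11280 was at 8.6, 8.65 and 8.76 in WT, 7.95, 7.95 and 7.9 in epfl4 epfl6 and 4.52, 3.78 and 4.23 in er-2, so that it was lower than WT by 0.74 (adjusted p = 0.00407) and above er-2 by 3.76. AT1G12400, at 6.51, 6.51 and 6.48 in WT, 7.15, 7.09 and 7.07 in epfl4 epfl6 and 4.28, 4.08 and 4.09 in er-2, rose from WT by 0.6 (adjusted p = 0.000141). AT1G23960, ECS1, AT1G11280 and AT1G12400 all lie on chromosome 1. AT4G11190, also low in er-2, lies on chromosome 4. Whether the low signals in er-2 come from the er-2 mutation or from another difference of that line was not tested. JAL23 was of another kind, since it was high in epfl4 epfl6 and not in er-2, at 6.23, 6.29 and 6.12. It differed by 2.26 ± 0.169 (adjusted p = 4.42e-05). AT1G04660 was at 6.17, 6.19 and 6.21 in er-2 and differed by 1.7 (adjusted p = 1.67e-05). EXLB1 rose less in the ligand mutant than in the receptor mutant, where it was at 6.58, 6.18 and 6.41, a difference of −0.97 (adjusted p = 0.000307). BGLU28 fell less, at 5.31, 5.21 and 5.27 in er-2 (difference 1.61, adjusted p = 2.34e-07).

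For several genes the direct test found no difference between the mutants. For EXPA9 the er-2 arrays were at 5.87, 5.92 and 5.78, and the difference was 0.09 ± 0.114 (SE; adjusted p = 0.622). For CHX20 it was 0.02 ± 0.112 (adjusted p = 0.926), for FAMA −0.04 ± 0.0806 (adjusted p = 0.795) and for ARL −0.05 ± 0.173 (adjusted p = 0.868). A p that misses the threshold does not show that the mutants act alike, and a difference larger than the SE can be missed. GH3.3, for example, differed by −0.56 ± 0.186 (SE; limma adjusted p = 0.0632) and was not called. The er-2 changes from WT were 1.33 for EXPA9, 1.13 for CHX20, 0.98 for FAMA and −1.01 for ARL. They are given side by side only, because the same 3 WT arrays served for both mutants. MUTE, at 4.03, 4.03 and 4.28 in er-2, was higher in epfl4 epfl6 by 0.45 (adjusted p = 0.00648).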

How the data were processed

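Biotin-labelled cRNA from total RNA of 3 WT, 3 er-2 and 3 epfl4 epfl6 samples was hybridised to 1-colour Affymetrix arrays, per the labels' protocols. The deposited values are log2 signals, 1 per probe set and array, made by the authors with RMA and limma, per the submitters' processing notes, with no version or settings given in the sources used here. They ran from 1.74 to 13.47, array medians were 5.82 to 5.91, and they were used with no further normalization. Arrays give no read depth, so the number of arrays sets the precision.

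Names came from the platform annotation, updated through Entrez identifiers in RefSeq: 13513 probe sets had 1 gene, 503 several and 8730 were not listed. A gene with several probe sets was read from the brightest. limma 3.58.1 in R 4.3.3 was fitted to all 9 arrays with 1 mean for each genotype. Tests were two-sided, adjusted by Benjamini-Hochberg over 22746 probe sets and called under 0.05, and errors of changes are standard errors of that fit. On simulated data this fit recovered 83.5% of 200 log2 changes of 0.5 and 98.5% of 200 changes of 1, with 19 false calls. The simulated noise was independent between arrays and took the variances of this fit. No control signal gap between genotypes was simulated, so these figures do not measure how reliable the calls given here are.

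Named genes are the 20 largest called, non-overlapping rises and falls, the same among descriptive symbols, up to 6 members per list by smallest p, pathway members, and the 10 largest differences from er-2 each way. Lack of overlap was thus a condition for naming the largest changes and is no result for them. Lists and members, in 37 lists and 22 families, were chosen with earlier results of these data known. Alternatives were a second quantile normalization, centring on array medians, dropping the 30% dimmest probe sets, a trended variance, array weights, a replicate block, 6 arrays only, an RNA quality covariate and each array left out.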

Additional observations from a re-analysis of the deposited data

How the results depend on the processing

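Without the RNA quality covariate, the count of 7707 calls ranged from 6264 to 7247 when 1 array was left out, and the 512 changes of at least 2-fold from 476 to 556. The higher calls ranged from 3445 to 3905, the lower from 2819 to 3342, and the 4587 calls against er-2 from 3344 to 4598. With the gap between 3′ and 5′ control signal as a covariate, 1 probe set was called by limma, 0 higher and 1 lower, and it had changed at least 2-fold. At an unadjusted p under 0.05 that fit had 1238 higher and 1168 lower, and against er-2 it called 66. Standard errors there were 4.0 times as large, since the index did not overlap between WT and epfl4 epfl6. Under it the log2 changes of 8 called genes changed sign, to 0.54 for ARL, −0.40 for XTH19, 0.0706 for rpl20, 0.24 for nad5, −0.31 for nad2, 0.0688 for EMS1, −0.22 for SWEET11 and −0.10 for GID1A, none of them called. The other 126 called genes followed here kept their direction with it. In that fit the change of ATA27 was −12.45, beyond its WT mean of 8.95, and that of JMT was −0.0125. A direction kept there therefore says little about these genes. Of 134 called genes named here, EXLA1 not counted, 126 kept their call under every other alternative that tested them. Those alternatives were 13 in number or, for NAMT1, XTH19 and BGLU46, 12, and none of the 134 genes changed sign under them. YUC4, not called, passed under 3 of 12 alternatives (adjusted p from 0.0261 to 0.273). Same-numbered WT and epfl4 epfl6 arrays correlated at −0.19, 0.10 and −0.04 in their deviations over all probe sets. For the 20 largest falls, replicate 2 was most often the highest array in each genotype. These values do not settle whether the numbers pair the arrays. With the replicate number as a block 7449 probe sets were called and 4248 against er-2. Median centring gave 4951 higher and 2922 lower calls. With the RNA quality covariate left out, counts of list members were within 1.5 times of the reported count in 1381 of 1508 comparisons. These include counts of 0 that stayed at 0, so the share does not measure how stable the other counts were. Signals near the lower quartile of the arrays limit the size of the deepest falls.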

Other observations

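Some of the strongly changed genes lie next to each other on a chromosome. In RefSeq's order of protein-coding genes, 5818 pairs of direct neighbours were both measured, and in 246 of them at least 1 gene was called and changed at least 2-fold. Both genes were in 8 pairs, of which 5 fell together, 2 rose together and 1 moved in opposite directions. AT4G30450 and AT4G30460 rose by 1.7 and 1.37 on the log2 scale, and AT3G50270 and AT3G50280 rose by 1.69 and 1.53. AT1G23560 and AT1G23570 fell by 3.28 and 3.54. The opposite pair was AT1G20150, which fell by 4.5, and its neighbour ATSBT5.2 (AT1G20160), a subtilase gene that rose by 1.05 (limma adjusted p = 4.18e-05). These pairs were named after their values were seen.

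The calls were spread over the nuclear chromosomes. Between 14.9% and 17.0% of the measured genes of a chromosome were called higher and between 13.5% and 15.7% lower. Falls of at least 2-fold made up 0.993% of the measured genes of chromosome 3 and 1.64% of those of chromosome 1. Of 146 genes with several probe sets, 5 had called probe sets in both directions.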
